A study of Mus musculus with 435 samples.

Results

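Eif4a2 encodes eIF4A2, a DEAD-box RNA helicase, and it is covered many times over on the array used here. Every probe position to which the probe-to-gene table assigns the symbol Eif4a2 was taken, which gave 17 of 17280 positions. They carry the IDs 13041 to 13057 and share 1 transcript accession. The gene was chosen because earlier results from these data showed a strain difference on the low-fat diet at several of its probes. That comparison is therefore given as a description, and strain tests are given for the high-fat arrays and for week 0, which are other samples. The tests of diet and of strain by diet also use the low-fat arrays and so are not independent of that choice. The high-fat strain test shares its week terms and its estimate of the spread with the low-fat groups. Its SE and p are therefore not fully independent of the choice either. A fit on only the groups compared is among the alternatives given below.

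Liver RNA of mice was hybridised to 435 spotted 2-colour arrays, 218 for AJ and 217 for C57 mice, both inbred strains. Either diet, high-fat or low-fat, was given in each strain, and the labels name weeks 0, 1 and 3 to 11. This gives 44 groups of strain, diet and week, of which 40 have 10 arrays, 3 have 9 and 1 has 8. Liver RNA carried Cy5 on every array, and the Cy3 channel held a pool of RNA from 10 C57 tissues, with 26% liver, 26% kidney, 13% brown adipose tissue, 12% skeletal muscle and smaller shares of lung, hypothalamus, white adipose tissue, brain, testes and heart. The labels used here give no age, sex, diet composition or substrain, and they do not say which arrays share a mouse, so p-values measure the spread between these arrays or weeks, which may be technical. A value here is the log2 ratio of liver to reference, centred on the median of its array, so 0 is the level of the median probe and not the absence of RNA.

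Eukaryotic cells start translation of most mRNAs at the 5′ cap, where the cap-binding protein eIF4E, the scaffold eIF4G and an eIF4A helicase form the eIF4F complex. The helicase unwinds structure in the leader of the mRNA so that the small ribosomal subunit can scan to the start codon. Mammals have the close paralogs Eif4a1 and Eif4a2 and the more distant Eif4a3, a core protein of the exon junction complex. eIF4A2 has also been linked to the CCR4-NOT deadenylase complex, which shortens poly(A) tails.

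Some facts of the series bear on all results. An array gave a value for 194 to 14929 probes, 10791 at the median. The median was 5007 at week 0, and over the weeks analysed it was 11423 in C57 and 11439 in AJ arrays. Most of week 8 (28 arrays) and 4 arrays of other weeks were unlike the rest, with r under 0.15 to the median array. These arrays and the rest of week 8 were left out, and 2 identical pairs of AJ high-fat arrays were counted once, which left 350 arrays in 36 groups over 9 weeks (1, 3 to 7 and 9 to 11). The 11 tested hepatocyte markers had a median centred log2 ratio of 1.07 and so lay above the median probe. Markers of tissues that the reference also contains lay below the median probe, at a median of -1.83 for skeletal muscle, -0.99 for kidney and -0.34 for brain.

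The 17 Eif4a2 probes fell into 3 ranges of coverage. Over the 9 weeks, 9 probes were measured on 92% to 100% of the 350 arrays, and these met the filter for testing, which asks for 70% of arrays and 3 arrays in every group. Another 6 probes were measured on 35.1% to 70.6% of arrays and were not tested. The remaining probes, 13042 and 13051, were measured on 3 and 12 arrays and give no usable level. Among the 9 tested probes coverage was alike in the strains, at 91.4% to 100% of C57 and 90.3% to 100% of AJ arrays. Among the 6 partly measured probes it was higher in C57 arrays at every probe, for example 77.7% against 63.4% at probe 13043 and 75.4% against 57.1% at probe 13052.

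**Figure D1:**
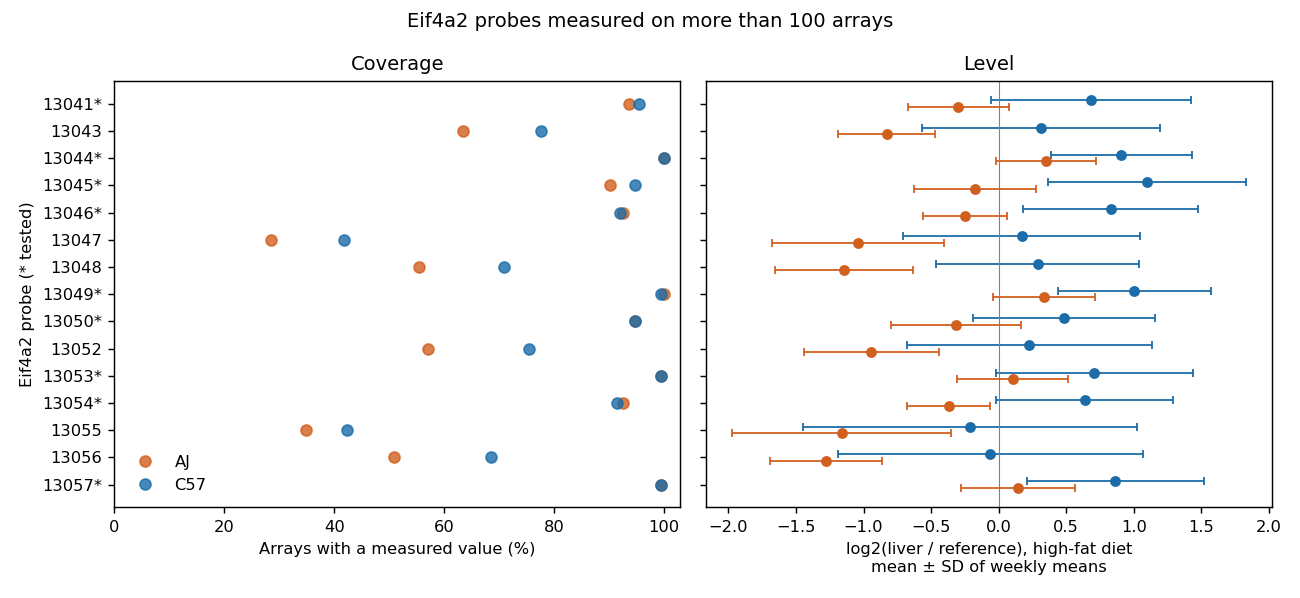
Eif4a2 probes measured on more than 100 arrays. Left, the share of the 350 arrays with a measured value, by strain. Right, the log2 ratio of liver to reference on the high-fat diet, as mean ± SD of the weekly group means. At each of the 15 probes the C57 mean lies to the right of the AJ mean.

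Eif4a2 was higher in C57 than in AJ liver on the high-fat diet at each of the 9 tested probes. The difference ran from 0.56 to 1.28 on the log2 scale with a median of 0.80, where the median of all 7643 tested probes was 0.00. All 9 probes passed the threshold (limma on weekly group means, Benjamini-Hochberg adjusted p over all tested probes, threshold 0.05), and 2.75% of all tested probes were called higher in C57.

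Probe 13045 showed the widest difference of the 9. Its weekly means on the high-fat diet averaged 1.10 ± 0.73 (SD, n = 9 weeks) in C57 and -0.18 ± 0.45 in AJ. The difference was 1.28 ± 0.16 (SE), a 2.42-fold higher ratio in C57, with an adjusted p of 4.17e-06 by limma and a positive sign in 9 of 9 weeks. In single arrays at week 1, C57 ran from 0.81 to 2.93 with a median of 1.88 (n = 10), and AJ from -0.20 to 0.57 with a median of 0.31 (n = 9). At week 3, C57 ran from 0.57 to 3.23 with a median of 1.74, and AJ from -0.01 to 0.38 with a median of 0.19 (n = 10 each). At week 6, C57 ran from 0.83 to 3.29 (n = 10) and AJ from -1.39 to 0.30 (n = 6). At these weeks every C57 array with a value lay above every AJ array with a value, and the C57 arrays were more spread out. Of all 7643 tested probes, 0.275%, 0.406% and 0.55% were separated in this way at weeks 1, 3 and 6. At week 6 only 6 of 10 AJ arrays had a value at this probe. At week 10 the strains overlapped widely, with C57 from -1.11 to 1.43 (n = 9) and AJ from -1.73 to 0.74 (n = 10).

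Probe 13046 had the smallest adjusted p. Its mean was 0.83 ± 0.65 in C57 and -0.25 ± 0.31 in AJ (SD, n = 9 weeks), a difference of 1.08 ± 0.13 (SE; adjusted p = 9.41e-07, limma). Probe 13054 differed by 1.01 ± 0.13 (adjusted p = 5.32e-06, limma), and was higher in C57 in 9 of 9 weeks. At probe 13041 the difference was 0.98 ± 0.15 (adjusted p = 7.28e-05, limma), with the weekly means at 0.68 ± 0.74 in C57 and -0.30 ± 0.37 in AJ. One C57 array of week 6 read 5.72 at this probe, where the next reads 1.92, and without it that group's mean goes from 1.73 to 1.29. Probe 13050 differed by 0.80 ± 0.12 (adjusted p = 6.42e-05, limma), and was higher in C57 in 8 of 9 weeks. These 5 probes had differences of at least 0.80.

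The differences of the other 4 tested probes were smaller, from 0.56 to 0.72. They were 0.72 ± 0.12 at probe 13057 (SE; adjusted p = 0.000226, limma), 0.67 ± 0.14 at 13049, 0.61 ± 0.13 at 13053 and 0.56 ± 0.12 at 13044 (adjusted p = 0.0042, limma). C57 was higher in 9 of 9 weeks at 13057 and 13044, and in 8 of 9 weeks at 13049 and 13053. Probe 13044 was measured on every array, and its single values show the overlap behind a smaller difference. At week 1 its C57 arrays ran from 0.71 to 2.65 with a median of 1.57 and its AJ arrays from 0.28 to 1.31 with a median of 0.64. At week 4 the strains covered nearly the same range, 0.45 to 2.03 in C57 and 0.43 to 1.68 in AJ (n = 10 each).

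The 6 partly measured probes were not tested, and their averages rest on as few as 0 arrays in a group. Their mean weekly difference on the high-fat diet was positive at each, from 0.95 at probe 13055 to 1.43 at probe 13048. C57 was above AJ in 9 of 9 weeks at probes 13048 and 13052, in 8 of 9 weeks at 13043, 13055 and 13056, and in 7 of the 8 weeks with values at 13047. More AJ than C57 values were missing at these probes, and the part of this in the averages was not tested.

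**Figure D2:**
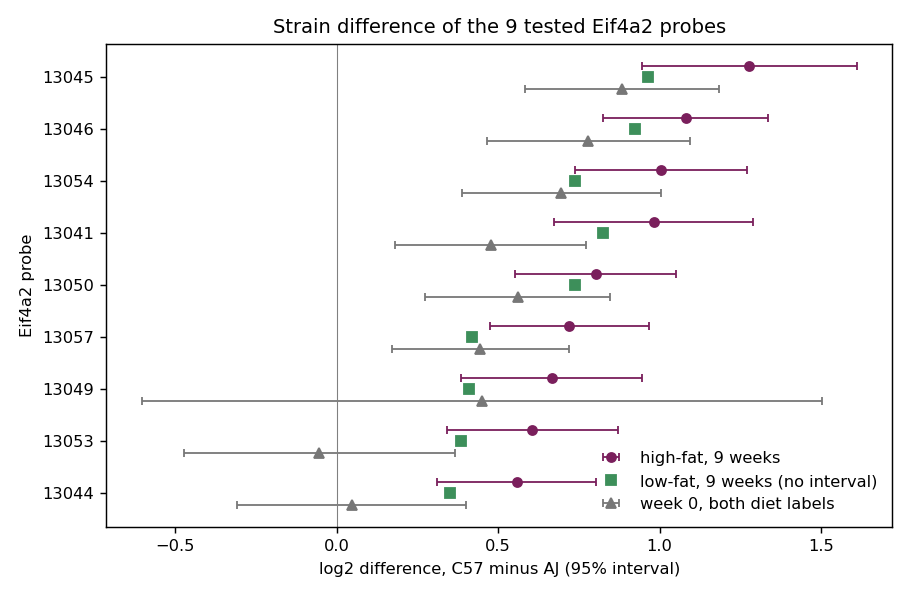
Strain difference of the 9 tested Eif4a2 probes as log2 difference, C57 minus AJ, for either diet and for week 0, with 95% intervals for the high-fat diet and week 0. The high-fat differences run from 0.56 to 1.28 and their intervals lie above 0. The low-fat points, from 0.35 to 0.97, are a description. The week 0 intervals of probes 13044, 13049 and 13053 include 0.

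On the low-fat diet, which was the comparison that led to the choice of the gene, C57 was also higher at each of the 9 probes. The difference ran from 0.35 to 0.97 with a median of 0.74, where the median of all tested probes was -0.00 and 1.53% of them were called higher. It was 0.97 ± 0.16 (SE) at probe 13045, 0.92 ± 0.13 at 13046, 0.83 ± 0.15 at 13041, and 0.74 at both 13050 and 13054. It was 0.42 ± 0.12 at 13057, 0.41 ± 0.14 at 13049, 0.39 ± 0.13 at 13053 and 0.35 ± 0.12 at 13044. The same 4 probes thus had the smaller differences on both diets. Over the 9 probes the differences on the diets, which come from different arrays, correlated at a Pearson and a Spearman coefficient of 0.95 each, as a description, since probes of 1 gene are not independent. In single arrays of probe 13045, AJ on the low-fat diet at week 1 ran from -0.01 to 1.05 with a median of 0.38, and C57 from 0.56 to 2.24 with a median of 1.46 (n = 10 each).

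No Eif4a2 probe passed the threshold for diet in either strain. In C57 the difference of high-fat less low-fat ran from 0.14 to 0.25 with a median of 0.21, with adjusted p from 0.776 to 0.969 (limma), and 0.196% of all tested probes were called in either direction. At an unadjusted p under 0.05, 1 of the 9 probes was counted, probe 13057, with a difference of 0.25 and a 95% interval of 0.01 to 0.50. In AJ it ran from -0.10 to 0.08 with a median of -0.03 (0 of 9 also at an unadjusted p under 0.05, limma), and 0.0262% of all tested probes were called. Of all 7643 tested probes, 483 in C57 and 414 in AJ had an unadjusted p under 0.05 (limma). At probe 13045 the 95% interval was -0.12 to 0.55 in C57 and -0.43 to 0.23 in AJ.

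A dependence of the strain difference on diet was not shown. The high-fat less the low-fat strain difference was positive at each of the 9 probes, from 0.06 to 0.31, but none was called, and none had an unadjusted p under 0.05 (limma). Of all 7643 probes, 0 were called and 204 had an unadjusted p under 0.05. The 9 probes share arrays, so their common sign is not 9 separate observations.

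Averaged over the 9 probes, the level was higher in C57 than in AJ on both diets. The mean of the weekly means was 0.80 ± 0.64 (SD, n = 9 weeks) in C57 on the high-fat diet and 0.60 ± 0.59 on the low-fat diet. It was -0.05 ± 0.35 in AJ on the high-fat diet and -0.04 ± 0.28 on the low-fat diet. In both strains the means of the diets differed by less than the SD over weeks. That SD includes a course over weeks that the diets share, so it is not the spread of the diet difference. Liver is a mixed tissue, and in such samples fewer cells of a type and less RNA per cell cannot be told apart.

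**Figure D3:**
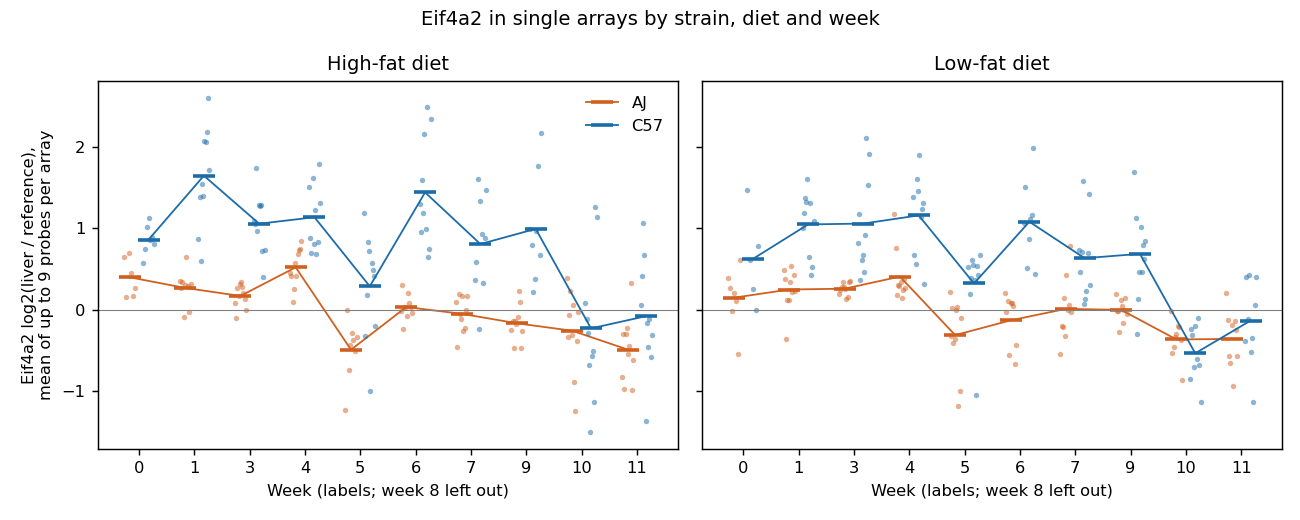
Eif4a2 in single arrays by week, as log2 ratio of liver to reference, averaged over the 9 tested probes (at least 5 measured) after each probe was brought to the common mean level. Bars joined by lines are group means. C57 arrays lie mostly above AJ arrays up to week 9 and overlap them at weeks 10 and 11.

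The level moved from week to week in both strains. In high-fat C57 livers the mean of the 9 probes was 1.65 at week 1, 1.06 at week 3, 1.15 at week 4, 0.30 at week 5, 1.46 at week 6, 0.80 at week 7 and 1.00 at week 9. In AJ on that diet it was 0.27, 0.18, 0.52, -0.52, 0.02, -0.04 and -0.17 at the same weeks. Week 5 was low in both strains and on both diets, with 0.32 in C57 and -0.29 in AJ on the low-fat diet. The strain difference at week 5 was 0.82 with high fat and 0.61 with low fat.

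At weeks 10 and 11 the strain difference was small. On the high-fat diet it ran from 0.63 to 1.44 over weeks 1 to 9, with a mean of 1.02, and was 0.11 at week 10 and 0.43 at week 11. On low fat it ran from 0.61 to 1.32 over weeks 1 to 9, with a mean of 0.81, and was -0.12 and 0.23 at weeks 10 and 11. Levels were lower at these weeks in both strains, and further so in C57: on the high-fat diet C57 averaged 1.06 over the earlier 7 weeks and -0.09 over weeks 10 and 11, and on the low-fat diet 0.86 and -0.30. In AJ the corresponding values were 0.04 and -0.37, and 0.05 and -0.36. At week 1 the median Eif4a2 probe lay above all but 0.157% of tested probes in its strain difference on the high-fat diet, whereas at week 10 42.8% of tested probes lay above it. The C57 high-fat arrays of weeks 10 and 11 had a median of 10230 and 10550.5 measured probes, where the other weeks had 7848.5 to 13092.5. Their median correlation with the median array was 0.64 and 0.70, against 0.53 to 0.67 at the other weeks. This split of the weeks was made after the values were seen, and it was not tested.

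**Figure D4:**
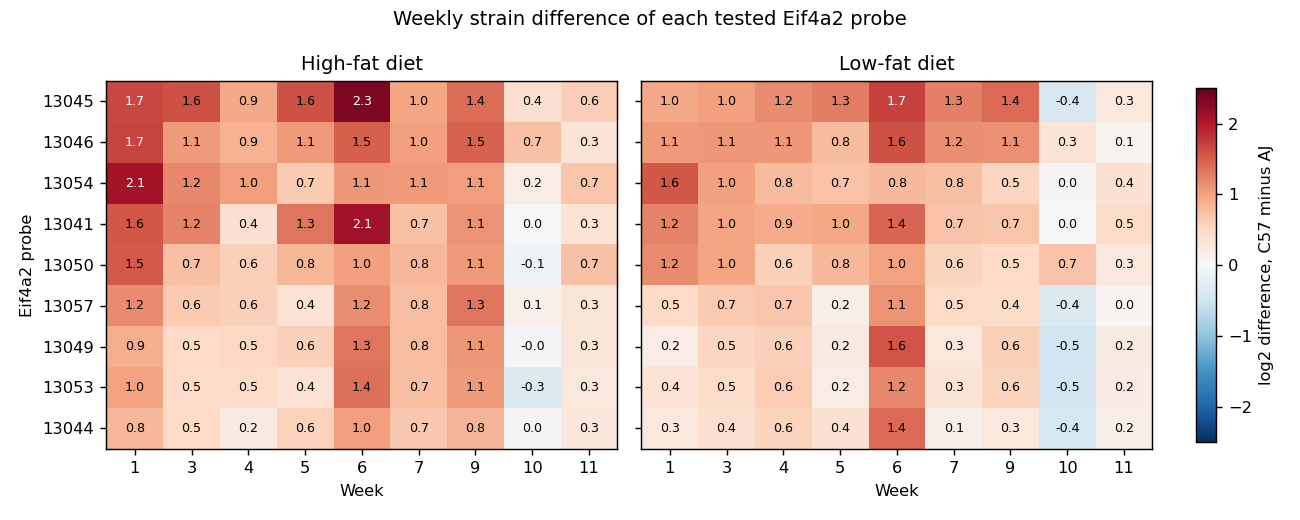
Weekly strain difference of each tested Eif4a2 probe, as log2 difference, C57 minus AJ, in colour and as the number in each cell. Rows are ordered by the high-fat difference over all 9 weeks. The colour is deepest at weeks 1 and 6, and weeks 10 and 11 are pale on both diets, with 5 negative cells at week 10 on the low-fat diet.

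Tests within single weeks, on the high-fat arrays of that week, called 7 of the 9 probes at week 1, 9 at week 3, 6 at week 6 and 3 at week 9 (limma, adjusted over all probes of the week). Of all probes tested in those weeks 0.473%, 1.26%, 0.644% and 0.0766% were called higher in C57. At weeks 4, 5 and 7 none of the 9 was called, and 0.137%, 0% and 0.0281% of all probes were called higher. At an unadjusted p under 0.05 (limma), 7, 7 and 9 of the 9 were counted at these weeks. Of all probes, 687 of 11693, 798 of 12024 and 951 of 14225 were higher in C57 at that threshold. At weeks 10 and 11 none of the 9 was called and none had an unadjusted p under 0.05, with 0% of all probes called higher. These weekly tests were added after the weekly values were seen. The strains did not overlap at 2 of the 9 probes at week 1, 2 at week 3, 1 at week 4, 2 at week 6 and 3 at week 9 on the high-fat diet, with C57 above AJ each time. Of the 7643 probes 0.275%, 0.406%, 0.34%, 0.55% and 0.0523% had every C57 array above every AJ array at these weeks. On low fat this was so for Eif4a2 at week 6 only, for probe 13045, which had 6 C57 and 4 AJ values there, and for 0.353% of all probes.

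At week 0 the labels already give a diet, and the strain difference was averaged over both diet labels. Here 4 of the 9 probes were called higher in C57 (limma on 39 single arrays), where 1.2% of the 5414 tested probes were called higher. The difference was 0.88 ± 0.15 (SE) at probe 13045 (adjusted p = 0.00039, limma), 0.78 ± 0.15 at 13046, 0.70 ± 0.15 at 13054 and 0.56 ± 0.14 at 13050 (adjusted p = 0.0314, limma). With the sample number as replicate block 3 were called, and 13050 was not (adjusted p = 0.0765, limma). The share of all probes called with the block was not computed. Probe 13045 ran from 0.55 to 1.57 in C57 labelled high-fat (n = 8) and from 0.29 to 1.90 in C57 labelled low-fat (n = 7). It ran from -0.53 to 0.62 in AJ labelled high-fat (n = 6) and from -0.21 to 0.56 in AJ labelled low-fat (n = 9). The C57 arrays lay mostly above the AJ arrays, with overlap under both labels.

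The 5 other probes were not called at week 0. The difference was 0.48 ± 0.14 at 13041 and 0.44 ± 0.13 at 13057, with adjusted p of 0.121 and 0.112 (limma), and 0.05 ± 0.17 at 13044 and -0.05 ± 0.20 at 13053. At 13049 it was 0.45 ± 0.51. One AJ low-fat array read -4.97 at that probe, where the next lowest reads 0.42, and without it the difference is -0.02. The 4 called probes are all among the 5 with the wider differences at the later weeks. Over the 9 probes the week 0 difference correlated with the high-fat difference at a Pearson coefficient of 0.88 and a Spearman coefficient of 0.95, again as a description. Taken by label, 4 probes were called in the groups labelled high-fat, with 1.2% of all probes called higher. In those labelled low-fat 0 were called, with 0.203% of all probes called higher. There 4 of the 9 had an unadjusted p under 0.05 (limma). Of all 5414 probes, 234 were higher in C57 at that threshold. The 4 called under the high-fat label were 13041, 13045, 13046 and 13054. With the replicate block, and with each label fitted alone, 2 of them were called, 13045 and 13054. A stricter filter also called these 2, and 13041 and 13046 did not pass it. With quantile normalization 13041 was not called (adjusted p = 0.123, limma). The share of all probes called was not computed for these alternatives. Week 0 arrays had fewer measured probes than later ones, and 19 to 30 of the 39 carried a value at each of the 9 probes. The median of measured probes was lower in C57, at 4409 labelled high-fat and 4872.5 labelled low-fat. In AJ it was 4983.5 and 5956.

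The 9 tested probes followed each other. Over the 36 weekly group means the correlation of a pair of probes ran from 0.81 to 0.97 over the 36 pairs, with a median of 0.89. With the mean of each strain and diet taken out it ran from 0.73 to 0.96, so the probes also shared a course over weeks. Over single arrays less their group mean it ran from 0.42 to 0.74 with a median of 0.56 (n = 350 arrays). All these values share arrays and labelled RNA.

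The 4 probes with the smaller strain difference, 13044, 13049, 13053 and 13057, also had the higher correlations among themselves. Over single arrays less their group mean their 6 pairs correlated at 0.61 to 0.74, the 10 pairs among the other 5 probes at 0.45 to 0.63, and the 20 pairs between the sets at 0.42 to 0.65. The 4 were measured on 99.4% to 100% of arrays and the 5 on 92% to 94.9%. The sets were formed after the values were seen and carry no test. The sources used here do not give the DNA sequence of the probes, so it is unknown whether the 17 positions hold 1 fragment or several.

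The array has 10 transcript accessions with 17 probes each, and no other accession has more than 2. The others belong to Cyc1, Nup62, Hspa1a, Gapdh, Rpl5, Tcea1, Ldha, Tcf3 and Top1. Of the 48 tested probes of these 9 genes 0 were called for strain on the high-fat diet, and 5 had an unadjusted p under 0.05 (limma). Of all tested probes 3.94% were called in either direction, so a count of 0 of 48 is near the background. An unadjusted p under 0.05 (limma) was found at 1164 of all 7643 tested probes. The differences of the 48 probes ran from -0.22 to 0.54. Hspa1a, a stress-induced chaperone, had the highest median, 0.37 over 5 tested probes. Gapdh, a glycolytic enzyme, stood at 0.16 over 5 probes. Ldha, lactate dehydrogenase A, and Cyc1, a subunit of respiratory complex III, stood at -0.01 and -0.05 over 11 probes each. The lowest Eif4a2 probe, at 0.56, lay above the highest of the 48. Probes of 1 gene also scatter within an array: the median SD within an array was 0.62 for Eif4a2, inside the range of 0.29 to 0.74 over the 10 genes.

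**Figure D5:**
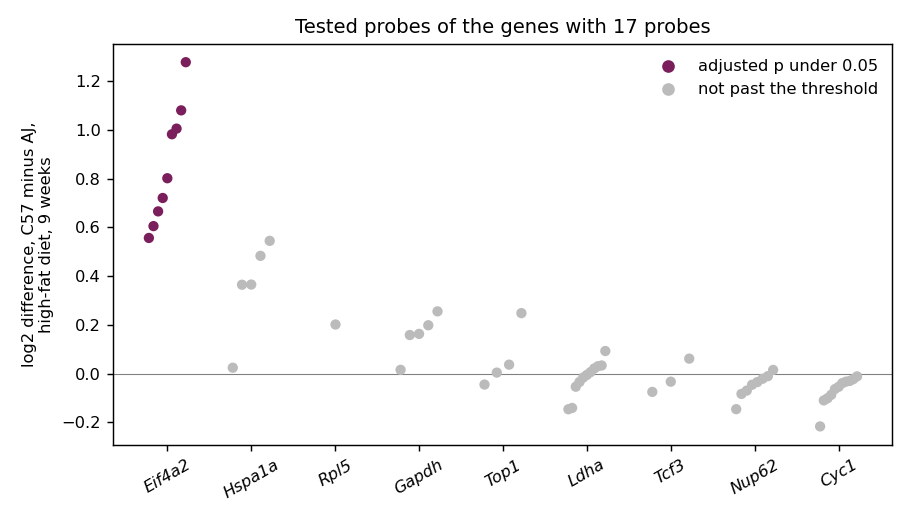
Strain difference on the high-fat diet over 9 weeks, as log2 difference, C57 minus AJ, for each tested probe of the genes with 17 probes. Tcea1 had no tested probe. The 9 Eif4a2 probes lie between 0.56 and 1.28, and the 48 probes of the other genes between -0.22 and 0.54.

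The paralogs have 1 probe each. Eif4a1, the main translation helicase in many tissues, was measured on 39.7% of arrays and was not tested. Its median over the measured arrays was 0.70 in C57 and 0.62 in AJ on the high-fat diet, and 0.38 in C57 and 0.69 in AJ on low fat. Eif4a3 was not called, with a strain difference of 0.13 ± 0.10 (SE; adjusted p = 0.586, limma) on the high-fat diet and 0.21 ± 0.10 on low fat. Whether Eif4a2 differs from its paralogs was not tested.

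A list of 30 genes held the cap complex and its partners, inhibitors, kinases and CCR4-NOT subunits. Of these, 10 could be tested and 0 were called for strain on the high-fat diet. There were 2 at an unadjusted p under 0.05 (limma), and the median difference was 0.04. A count of 0 of 10 is near the 3.94% called over all tested probes. Of all 7643 tested probes, 1164 had an unadjusted p under 0.05 (limma). Among the cap-complex genes, Eif4e, the cap-binding protein, stood at 0.23 ± 0.12 (SE). Eif4b and Eif4h, cofactors of the helicase, stood at 0.25 ± 0.10 and 0.15 ± 0.08. Eif4g2, a relative of the scaffold eIF4G, stood at 0.14 ± 0.15, and Pabpc1, the poly(A)-binding protein, at -0.31 ± 0.13. Mknk1, a kinase of eIF4E, stood at 0.10 ± 0.09. The 4 tested CCR4-NOT subunits, Cnot2, Cnot6l, Cnot7 and Cnot8, lay between -0.16 and -0.02. No inhibitor gene (Pdcd4 and the Eif4ebp genes) could be tested.

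In the gene order of the RefSeq table for assembly GRCm38.p6, Eif4a2 lies on chromosome 16, and the 5 nearest tested genes on each side were compared. Of these 10, only Ahsg was called on the high-fat diet, where 3.94% of all tested probes were called in either direction. Ahsg encodes fetuin-A, a plasma protein made by hepatocytes, and was higher in C57 by 0.54 ± 0.13 (SE; adjusted p = 0.00839, limma). The other 9, Hrg, Fetub, Tbccd1, Crygs, Rtp4, Tprg, Cldn16, Il1rap and Plaat1, ran from -0.21 to 0.16. No build is named for the array, so no position is given for the probes.

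Markers of liver cell types give the setting of the strain difference. Of 11 tested hepatocyte markers 2 were higher in C57 on the high-fat diet, Ahsg and Fgb, a fibrinogen chain, at 0.38 ± 0.10 (SE), and 2 were lower, Alb, serum albumin, at -0.39 ± 0.10, and Trf, transferrin, at -0.41 ± 0.09, where 2.75% and 1.19% of all tested probes were called in these directions. None of the tested macrophage and leukocyte (4), stellate and matrix (2), endothelial (2), muscle (5), brain (5) or kidney (2) markers was called (limma). An unadjusted p under 0.05 (limma) was found at 1 of these 20 and at 1164 of all 7643 tested probes. No red blood cell or adipose marker could be tested. The part of cell composition in the Eif4a2 difference was not tested.

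The probes whose weekly course was most like the mean of the 9 Eif4a2 probes were sought among the other 7634 tested probes, by Pearson r over the 36 group means. The highest were Arhgap12, with r = 0.89, Shld1, a subunit of the shieldin DNA repair complex, with 0.89, Rgs3, a regulator of G protein signalling, with 0.87, Dtnb, dystrobrevin beta, with 0.85, and Tob1, an antiproliferative protein, with 0.84. In all, 11 probes exceeded 0.8, and the median of all was 0.01. Their strain differences on the high-fat diet were 0.70, 0.86, 0.72, 0.89 and 0.84, and the measure of likeness includes that difference. Within the 18 C57 group means alone their r was 0.84 to 0.92, and within the 18 AJ means 0.21 to 0.72. The lowest r belonged to Bcl2l12 (-0.77), Psd3 (-0.74) and Nectin3 (-0.70). The points share weeks and arrays.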

How the data were processed

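Liver RNA of 435 arrays was compared with a pooled reference, with groups taken from the titles. The authors deposited 1 value per probe and array, a ratio (handled here as a score with no fixed range). That it is linear and runs liver over reference was read from the values, and image analysis, background subtraction and normalization are not given in the sources used here. Of the measured values 0.523% were at or below 0 and were treated as not measured. The log2 of the rest was taken with no pseudocount, and each array was centred on its median over the 7643 tested probes. The test was limma (version 3.58.1, R 4.3.3), run on 36 weekly group means with strain-diet level and week as terms and, at week 0, on single arrays, with Benjamini-Hochberg adjustment and a threshold of 0.05. The scripts were tested on simulated data. Symbols came from the series' probe table, updated by Entrez identifier for 14416 of 14711 probes with 1 symbol. Named genes were the Eif4a2 probes, the eIF4A paralogs, the list of cap-complex, inhibitor, kinase and CCR4-NOT genes, and chromosomal neighbours. The 5 highest and 3 lowest correlations were also named, and marker lists were tested alongside. Genes, lists and tests were chosen with earlier results of these data known. Alternatives were other scalings, filters, summaries, replicate units, weeks and samples in the fit. Signal intensities are not used here, and the number of arrays with a value limits the precision at each probe.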

Additional observations from a re-analysis of the deposited data

Results flagged for a closer look

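The mean over the tested Eif4a2 probes was looked at in 40 groups of arrays, and in 2 of them a single array lay far from the others. Chance alone gives this in about 1 in 20 groups. In AJ mice on the low-fat diet at week 1, array 12 read -0.36, where the nearest array read 0.11, the highest 0.54 and the median was 0.29. In C57 mice on the low-fat diet at week 5, array 47 read -1.05, where the nearest read 0.19, the highest 0.67 and the median was 0.48.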

How the results depend on the processing

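The high-fat strain difference was called at every tested Eif4a2 probe under every alternative run except 1: 8 of 8 with a stricter filter, 11 of 11 with a looser one, and 9 of 9 without centring, with quantile normalization, group medians, single arrays, only the groups compared, or any week or weeks 10 and 11 (chosen after seeing the data) left out. Of all 7643 tested probes, 210 were called higher in C57 on high-fat in the analysis reported. That count was 171 without centring, 240 with quantile normalization and 173 without weeks 10 and 11. With week 8 and the unlike arrays included only 5 of the Eif4a2 probes passed the filter, and 4 were called. Probe 13053 was not, at 0.52 (adjusted p = 0.110, limma). The median strain difference of the Eif4a2 probes ran from 0.68 to 0.98, and on the low-fat diet from 0.56 to 0.81. Diet and strain-by-diet calls of Eif4a2 numbered 0 under each alternative run for them; strain by diet takes all groups, so it was not fitted on only those compared. Under the week 0 high-fat label, a stricter filter, the replicate block and each label fitted alone called 2 probes each. With quantile normalization 13041 was not called under that label (adjusted p = 0.123, limma). Under the low-fat label 1 probe was called without centring. The analysis reported called 1.2% and 0.203% of all probes higher under these labels. The share of all probes was not computed for the week 0 alternatives.

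The share of all tested probes called moved more. In the analysis reported it was 3.94% for strain on high-fat, 2.39% on low-fat, 0.196% for diet in C57, 0.0262% in AJ and 0% for strain by diet. Single arrays as replicates gave 10.1%, 5.55%, 1.52%, 0.131% and 0.0131%. With the sample number as replicate block these were 9.3%, 5.69%, 1.36%, 0.196% and 0.0131%, and 9 of 9 Eif4a2 probes were called on high-fat. Of 177 same-numbered pairs of the strains within a week and diet, 44 correlated above 0.1, and the highest r was 0.68. The median of the medians by week and diet was 0.02. The numbers run out of step between some groups, so these values cannot decide whether samples were paired. At week 0 the block called 3 of the 9 Eif4a2 probes, and its share over all probes was not computed. With week 8 included, the shares were 1.92%, 1.25%, 0.0697%, 0% and 0% of 2869 probes. Without weeks 10 and 11, diet called 0.0785% in C57 and 0.0131% in AJ. Leaving out single weeks gave 0.0785% to 0.249% in C57 and 0% to 0.0262% in AJ. Quantile normalization called 3.68% for strain on low-fat and 0.0523% for diet in AJ. For diet in AJ a stricter filter called 0.0237% and group medians 0.0131%. The share of calls that were higher in C57 moved on low-fat from 63.9% to 80.3% without centring, and on high-fat from 69.8% to 59.6% with quantile normalization. The cause was not tested. Depth cannot be weighed, since no signal intensities were used.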

Other observations

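Week 8 entered no comparison. Of its 40 arrays 28 were unlike the others, namely 9 of 10 in AJ high-fat, 10 of 10 in AJ low-fat, 9 of 10 in C57 high-fat and 0 of 10 in C57 low-fat. In the C57 low-fat group the mean over the tested Eif4a2 probes was 0.90 ± 0.63 (SD, n = 10). At least 5 of the 9 probes were measured on 4, 6 and 4 arrays of the other groups, whose means were -0.27, -0.66 and -0.37, so the strains cannot be compared at this week.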
